A study of Mus musculus with 14 samples.

Results

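The innate pattern recognition receptors and adaptors examined here are 36 genes chosen by symbol, all of which have a row among the 46904 genes of the deposited expression table. They comprise 5 surface and 7 endosomal Toll-like receptors (TLRs), 3 co-receptor and chaperone genes, 4 TIR adaptors, 4 IRAK kinases, 3 genes of the Nod receptors, 4 of the C-type lectins, 3 of cytosolic nucleic acid sensing, and the shared signalling genes Traf3, Traf6 and Tbk1. The study asked how the lack of cortistatin, a neuropeptide encoded by Cort, alters the brain's response to ischemic stroke. Stroke was modelled by middle cerebral artery occlusion (MCAO), which blocks blood flow to part of 1 hemisphere for 20 min. Poly(A) RNA of whole hemispheres, taken 48 h later, was sequenced from the injured (MCAO) and the contralateral (CL) side. The groups were Cort+/+ CL (n = 3), Cort+/+ MCAO (n = 3), Cort-/- CL (n = 3) and Cort-/- MCAO (n = 5). All 4 groups were male mice, and their age of 12 weeks follows from the occlusion of 20 min, which the protocol gives for mice of that age. The background of the Cort-/- line was C57BL/6J, and the deletion was constitutive rather than limited to a cell type. The CL hemispheres came from operated animals and no sham-operated group was analysed here. The methods call the libraries independent biological replicates, and they state that, where large variability could have hidden differences, replicates which grouped clearly were kept. They give 5 MCAO replicates, of which the Cort+/+ group analysed here holds replicates 2, 3 and 4.

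Pattern recognition receptors bind molecules shared by microbes, and molecules that damaged cells release. TLRs at the cell surface bind lipids and proteins, and most of those in endosomes bind nucleic acids. Most TLRs signal through the adaptor Myd88 to the IRAK kinases and the ubiquitin ligase Traf6. Nod receptors sense bacterial cell wall fragments in the cytosol and signal through Ripk2, the C-type lectins signal through Card9, and cGAS and Sting1 respond to cytosolic DNA. In the brain most of these receptors are known chiefly from microglia, the resident macrophages, and from macrophages and neutrophils that enter from the blood.

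Whole reads recovered from the table came to 25989756 to 43032394 per library, the fewest in Cort-/- MCAO replicate 3. Cort had 64 to 139 reads in the Cort+/+ libraries and 0 to 4 in the Cort-/- libraries, in keeping with each library's label. Neuron, oligodendrocyte and astrocyte markers were above 0 in every library, as for brain tissue. Of the blood cell markers, Ly6g, which defines neutrophils, and Cd3e and Cd3d, which define T cells, were at 0 in at least 1 library of every group. The other neutrophil markers, and Cd4 and Trac of the T cell markers, were above 0 in every library. Of the monocyte and macrophage markers only Cd5l was at 0 in some library, in the CL groups.

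The members differed widely in level. Levels are given as RPKM, reads scaled to the length of the gene and the depth of the library, which allows genes to be compared. Tbk1, a kinase shared by several sensing pathways, was highest at a mean of 16.4 RPKM over the 14 libraries, followed by Irak1 at 15.7 RPKM and Traf3 at 9.37 RPKM. Unc93b1, the chaperone that carries endosomal TLRs from the endoplasmic reticulum, came next at 8.17 RPKM and was the highest of the genes tied to the receptors themselves. Among the TLRs, Tlr3 had the highest mean level (3.22 RPKM), then Tlr2 (1.82 RPKM), Tlr7 (1.67 RPKM) and Tlr13 (1.49 RPKM), while Tlr4, the lipopolysaccharide receptor, averaged 0.366 RPKM. In all, 18 members averaged 1 RPKM or more, 30 had at least 10 reads in every library, and 32 were above 0 in every library. The 4 members that were at 0 somewhere were Clec4d, Clec4e, Tlr8 and Tlr11, and Tlr11 never had more than 3 reads.

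Averaged over both genotypes, 10 of the 36 members were higher in MCAO than in CL hemispheres and none was lower (limma, Benjamini-Hochberg adjusted p under 0.05 over 46102 genes). They were the surface receptors Tlr2 and Tlr1, the co-receptor Cd14, the endosomal receptor Tlr13, the chaperone Unc93b1, the adaptors Myd88, Card9, Mavs and Sting1, and the kinase Irak4. Of all genes tested, 3.43% passed in this comparison. Among genes averaging 1 RPKM or more, 8.05% of 15063 passed, against 8 of the 18 members at that level. That level is a mean over all libraries, and Tlr2, Tlr13 and Card9 reached it only through the MCAO libraries. With the level taken from the CL libraries alone, an alternative chosen after the values were seen, 7.01% of 14889 genes and 5 of 15 members passed. The median log2 fold change of the 36 members was 0.38 on the scale of log2(RPKM + 0.1). It was 0.00 for all genes tested and -0.03 for genes of at least 1 RPKM. Of the 36, 30 were positive, beside 50% of all genes. Without each of the 14 libraries in turn, 7 of the 10 kept the call each time, and the exceptions were Tlr13, Irak4 and Mavs. In bulk tissue, more cells of a type and more RNA per cell cannot be told apart.

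**Figure D1:**
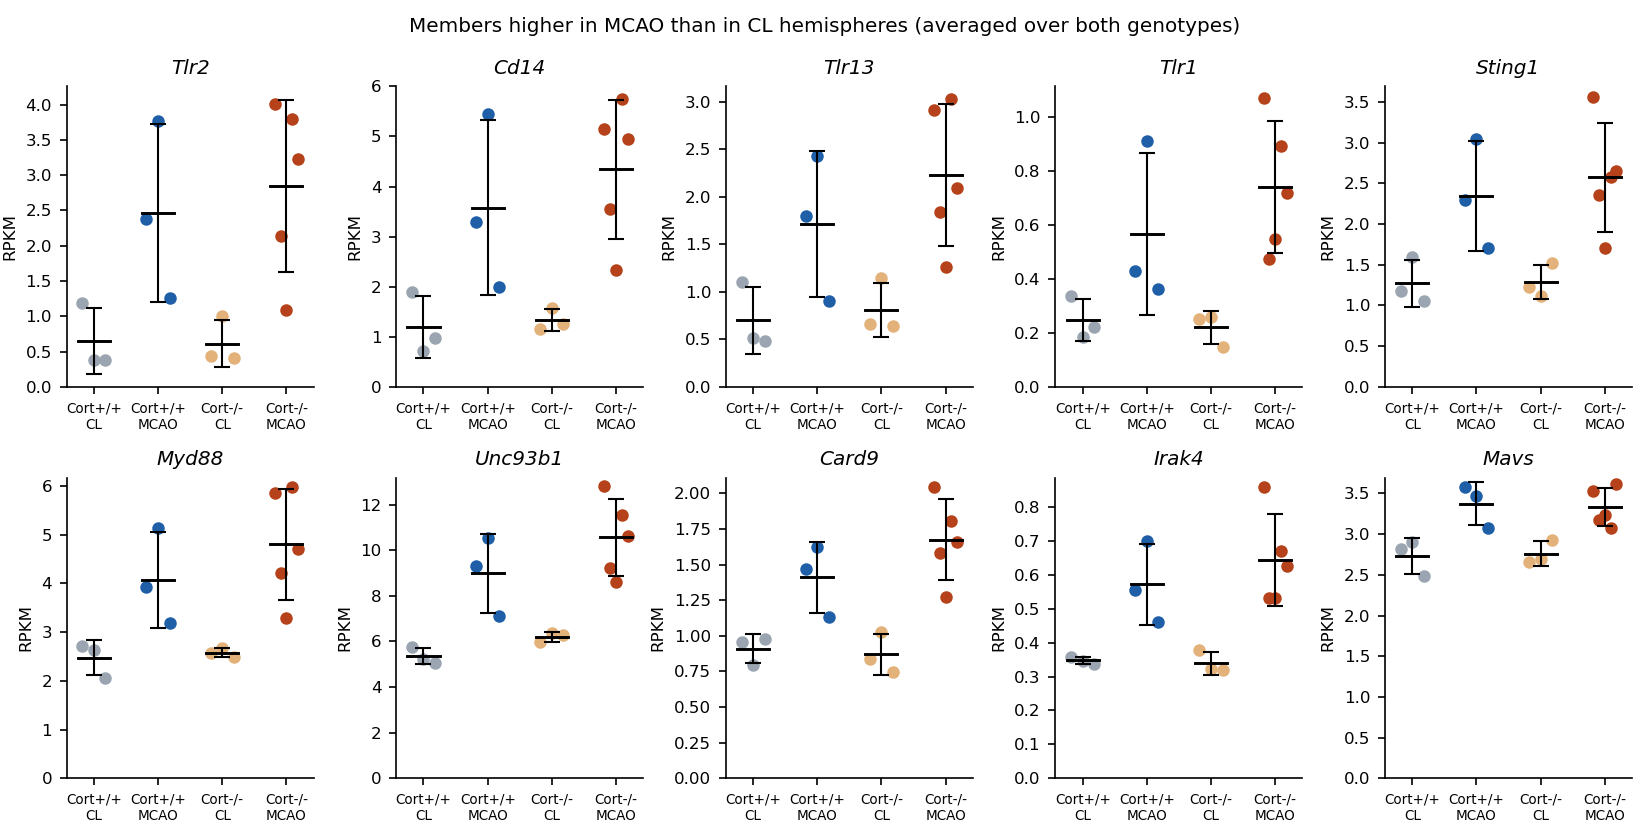
RPKM of the 10 members that were higher in MCAO than in CL hemispheres averaged over both genotypes, by group (points, libraries; wide bars, means; error bars, SD; n = 3, 3, 3 and 5). For 9 of the 10, each MCAO library of both genotypes lies above each CL library of its genotype. For Tlr13, 1 Cort+/+ MCAO library at 0.899 RPKM lies below a CL library at 1.10 RPKM. Such separation largely follows from the choice of these genes. Over all genes it held for 5.73% in Cort+/+ and for 4.85% in Cort-/- mice, and among genes averaging 1 RPKM or more for 8.19% and 8.85%.

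On the log2(RPKM + 0.1) scale, which understates changes of low genes such as Clec4d, the surface TLRs included the largest averaged change of the 36 members. Tlr2, which pairs with Tlr1 or Tlr6 to bind bacterial lipopeptides, was at 1.19, 0.384 and 0.373 RPKM in Cort+/+ CL replicates 1, 2 and 3 and at 2.38, 3.76 and 1.25 RPKM in Cort+/+ MCAO replicates 2, 3 and 4. In Cort-/- mice it was at 0.433, 0.998 and 0.410 RPKM in the CL libraries and at 4.002, 2.14, 1.09, 3.79 and 3.23 RPKM in MCAO replicates 1 to 5. The MCAO libraries were above the CL libraries within each genotype, although the lowest MCAO value of Cort-/- mice was close to their highest CL value. The averaged log2 fold change of Tlr2 was 1.92 ± 0.36 (SE), with an adjusted p of 0.0112.

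Tlr1, the partner of Tlr2, rose by 1.12 ± 0.23 on the log2 scale (SE; adjusted p = 0.0165). Its levels were 0.336, 0.185 and 0.223 RPKM in Cort+/+ CL and 0.428, 0.911 and 0.362 RPKM in Cort+/+ MCAO libraries. In Cort-/- mice they were 0.251, 0.260 and 0.148 RPKM in CL and 1.07, 0.472, 0.546, 0.890 and 0.719 RPKM in MCAO libraries, and neither genotype showed overlap between hemispheres. Tlr6, the other partner and the neighbour of Tlr1 on chromosome 5, had 0.149 to 0.420 RPKM in Cort+/+ MCAO against 0.134 to 0.232 RPKM in CL libraries. The ranges overlapped there and were separate in Cort-/- mice, at 0.250 to 0.456 RPKM in MCAO and 0.0840 to 0.164 RPKM in CL libraries. Tlr6 did not pass the test (averaged log2 fold change 0.60 ± 0.20, adjusted p = 0.143). Tlr4 had a log2 fold change of 0.77 ± 0.20 (adjusted p = 0.0608), just short of the threshold. Tlr5, the flagellin receptor, had 8 to 29 reads in each library and a log2 fold change of 0.10 ± 0.16 (adjusted p = 0.849).

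Tlr2 and Tlr13 had the largest averaged changes of the receptor genes, and to show what lies in front of them the 250 bases before the start of the canonical transcript are given (GRCm39, GENCODE M39, strand of the gene). Capitals mark matches on either strand to GAGGAA, the core bound by ETS factors such as PU.1, and in Tlr2 also a pair of overlapping matches to the NF-kappaB consensus that end 4 bases before the start. The Tlr2 window is chr3:83749075-83749324 on the minus strand and holds no annotated exon. The Tlr13 window is chrX:105186561-105186810 on the plus strand, and 1 of its bases lies in an exon of another Tlr13 transcript.
Tlr2: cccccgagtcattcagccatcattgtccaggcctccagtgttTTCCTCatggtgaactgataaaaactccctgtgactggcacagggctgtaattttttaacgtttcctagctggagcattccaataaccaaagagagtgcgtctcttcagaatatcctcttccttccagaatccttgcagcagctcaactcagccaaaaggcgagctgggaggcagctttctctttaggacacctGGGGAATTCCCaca
Tlr13: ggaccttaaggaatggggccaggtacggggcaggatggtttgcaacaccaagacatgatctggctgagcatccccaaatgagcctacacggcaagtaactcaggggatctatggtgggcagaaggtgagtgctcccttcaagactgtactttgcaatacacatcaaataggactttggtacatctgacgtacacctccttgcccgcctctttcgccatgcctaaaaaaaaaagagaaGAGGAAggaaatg
Both strands of such windows were searched in 21751 protein-coding genes. GAGGAA was present in 22.9% of them and in 12 of the 36 members, of which Tlr2 and Tlr13 were the only ones among the 10 higher genes. The NF-kappaB consensus was present in 7.62% of all windows and in Tlr2, Tlr3 and Ly96. GAAANNGAA, the core of the interferon stimulated response element, was present in 7.55% of all windows and in Tlr8, Tlr11, Clec4d and Tbk1, with none of the 10 higher genes among them. Matches of these letters are a description and show no binding.

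Of the endosomal TLRs, only Tlr13, the mouse receptor for bacterial ribosomal RNA, passed the test in the averaged comparison (log2 fold change 1.25 ± 0.27, adjusted p = 0.0221). Its levels were 1.10, 0.513 and 0.482 RPKM in Cort+/+ CL and 1.80, 2.43 and 0.899 RPKM in Cort+/+ MCAO libraries. Libraries of Cort-/- mice had 0.657, 1.14 and 0.639 RPKM in CL and 2.91, 1.84, 1.26, 3.03 and 2.10 RPKM in MCAO libraries. The hemispheres did not overlap in Cort-/- mice, whereas in Cort+/+ mice MCAO replicate 4 lay below CL replicate 1. The call was lost on leaving out any 1 of 6 libraries (CL replicates 1 and 3 of Cort-/- mice, CL replicates 2 and 3 and MCAO replicates 2 and 3 of Cort+/+ mice), with log2 fold changes of 1.10 to 1.20. All 7 endosomal TLRs had positive averaged values. Tlr7, a receptor for single-stranded RNA, was at 2.26 ± 0.638 RPKM (SD, n = 5) in Cort-/- MCAO and 1.06 ± 0.0667 RPKM (SD, n = 3) in Cort-/- CL libraries, without overlap. In Cort+/+ mice it was at 1.93 ± 0.862 RPKM in MCAO and 1.05 ± 0.358 RPKM in CL libraries (SD, n = 3 each), where MCAO replicate 4 lay below CL replicate 1. Its averaged change of 0.86 ± 0.23 missed the threshold (adjusted p = 0.0591). Tlr3, the receptor for double-stranded RNA, had a smaller and similarly placed value (0.34 ± 0.09, adjusted p = 0.0594), as did the CpG DNA receptor Tlr9 (0.54 ± 0.15, adjusted p = 0.0799). Tlr12 had 0.35 ± 0.15 (adjusted p = 0.275). Tlr8, which lies beside Tlr7 on the X chromosome, had 0 to 6 reads in Cort+/+ CL, 0 to 19 in Cort+/+ MCAO, 0 to 4 in Cort-/- CL and 8 to 21 in Cort-/- MCAO libraries (averaged log2 fold change 0.41 ± 0.19, adjusted p = 0.332). Tlr11 had 0 reads in the 3 Cort-/- CL libraries and 1 to 3 in the 5 Cort-/- MCAO libraries, 0 to 2 in Cort+/+ CL and 0 to 1 in Cort+/+ MCAO libraries, and its adjusted p was 0.260 in Cort-/- mice and 0.476 averaged.

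The co-receptor Cd14, which hands lipopolysaccharide and lipopeptides to TLRs, changed by 1.54 ± 0.27 (SE; adjusted p = 0.00755), second to Tlr2 on this scale. It was at 1.90, 0.723 and 0.980 RPKM in Cort+/+ CL and 3.29, 5.45 and 1.99 RPKM in Cort+/+ MCAO libraries. The Cort-/- libraries had 1.15, 1.58 and 1.26 RPKM in CL and 5.15, 3.55, 2.33, 5.75 and 4.94 RPKM in MCAO libraries. In Cort+/+ mice the highest CL library lay just under the lowest MCAO library. Ly96 (MD-2), the partner that Tlr4 needs to bind lipopolysaccharide, did not follow Cd14 past the threshold, with 0.666 to 1.19 RPKM in Cort-/- CL, 0.763 to 1.49 RPKM in Cort-/- MCAO libraries and a log2 fold change of 0.32 ± 0.16 (adjusted p = 0.372). The chaperone Unc93b1 had the lowest adjusted p of the 36 members (0.00225), with a change of 0.73 ± 0.10. Its levels were 5.76, 5.25 and 5.07 RPKM in Cort+/+ CL and 9.31, 10.5 and 7.11 RPKM in Cort+/+ MCAO libraries. Its Cort-/- values were 5.96, 6.36 and 6.27 RPKM in CL and 12.8, 9.24, 8.62, 11.5 and 10.6 RPKM in MCAO libraries. Each Unc93b1 value of an MCAO hemisphere exceeded every CL value of either genotype.

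Among the TIR adaptors, Myd88 alone passed the test (log2 fold change 0.76 ± 0.14, adjusted p = 0.0103). It was at 2.71, 2.64 and 2.06 RPKM in Cort+/+ CL and 3.92, 5.12 and 3.18 RPKM in Cort+/+ MCAO libraries. For Cort-/- mice the values were 2.58, 2.67 and 2.49 RPKM in CL and 5.85, 4.20, 3.28, 5.97 and 4.70 RPKM in MCAO libraries, so that all 8 MCAO libraries were above all 6 CL libraries. Ticam1 (TRIF), the adaptor of Tlr3 and of endosomal Tlr4, did not pass, with 2.06 ± 0.0651, 2.34 ± 0.372, 2.06 ± 0.157 and 2.54 ± 0.283 RPKM (SD) in Cort+/+ CL, Cort+/+ MCAO, Cort-/- CL and Cort-/- MCAO, and an adjusted p of 0.204. Tirap, the bridge from Tlr2 and Tlr4 to Myd88, had a log2 fold change of 0.33 ± 0.12 (adjusted p = 0.205). Ticam2, the bridge from Tlr4 to Ticam1, had 0.57 ± 0.19 (adjusted p = 0.143), and its exons overlap those of Tmed7 on the same strand.

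The kinases and ubiquitin ligases downstream of the receptors were among the members with the smallest changes. Of the 8 genes of this kind (Irak1, Irak2, Irak3, Irak4, Ripk2, Traf3, Traf6 and Tbk1) only Irak4 passed the test, and their median averaged log2 fold change was -0.02, beside 3 calls and a median of 0.43 for the 18 receptors and sensors. The intervals were narrow for those at high levels. For Tbk1 the 95% interval of the averaged log2 fold change was -0.08 to 0.05, for Irak1 -0.02 to 0.17, for Traf6 -0.16 to 0.09, for Traf3 -0.25 to 0.15, for Irak2 -0.26 to 0.18 and for Ripk2 -0.27 to 0.13. All 6 intervals lie below the estimates of Myd88, Unc93b1 and Card9, and the differences between genes were not tested.

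Irak1 was the member of largest change among the IRAK kinases of at least 1 RPKM. It was at 16.6, 15.0 and 14.6 RPKM in Cort+/+ CL and 15.5, 16.7 and 15.7 RPKM in Cort+/+ MCAO libraries. Libraries of Cort-/- mice had 14, 16.5 and 15.0 RPKM in CL and 16.6, 15.2, 15.9, 16.7 and 16.2 RPKM in MCAO libraries, and the groups overlapped (log2 fold change 0.07 ± 0.04, adjusted p = 0.509). Irak4, the kinase that Myd88 recruits first, was far lower in level. It was at 0.359, 0.346 and 0.338 RPKM in Cort+/+ CL and 0.555, 0.700 and 0.462 RPKM in Cort+/+ MCAO libraries. The Cort-/- libraries had 0.378, 0.322 and 0.318 RPKM in CL and 0.859, 0.532, 0.533, 0.669 and 0.625 RPKM in MCAO libraries, without overlap in either genotype. Its averaged change was 0.66 ± 0.13 (adjusted p = 0.0155), and the adjusted p was 0.0509 when Cort+/+ MCAO replicate 3 was left out. Irak3 (IRAK-M), a brake on TLR signalling, had 0.27 ± 0.15 (adjusted p = 0.471).

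Traf3, at the branch between Ticam1, Mavs and Tbk1, was at 8.52, 10.7 and 8.71 RPKM in Cort+/+ CL and 10.5, 9.10 and 8.68 RPKM in Cort+/+ MCAO libraries. Its Cort-/- values were 10.6, 8.41 and 10.6 RPKM in CL and 9.09, 9.32, 9.64, 7.05 and 10.3 RPKM in MCAO libraries. Its values overlapped in both genotypes (averaged log2 fold change -0.05 ± 0.09, adjusted p = 0.891). Among the Nod receptors and their kinase none passed the test. Nod1 was at 1.59, 1.71 and 1.36 RPKM in Cort+/+ CL and 1.73, 2.02 and 1.64 RPKM in Cort+/+ MCAO libraries. For Cort-/- mice the values were 1.68, 1.35 and 1.39 RPKM in CL and 1.93, 1.67, 1.59, 1.57 and 1.88 RPKM in MCAO libraries. The hemispheres overlapped, and the averaged log2 fold change was 0.21 ± 0.08 (adjusted p = 0.249). Nod2, which senses muramyl dipeptide, had -0.01 ± 0.16 (adjusted p = 0.996).

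**Figure D2:**
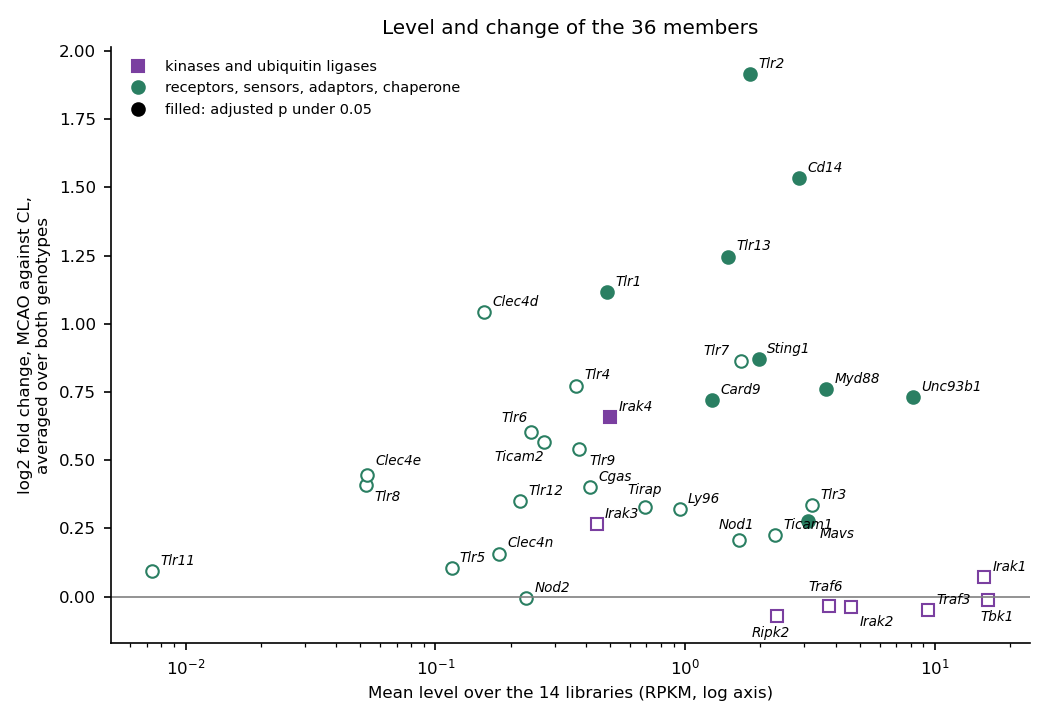
Averaged log2 fold change of MCAO against CL hemispheres (vertical axis) against the mean level over the 14 libraries (horizontal axis, RPKM, log scale) for the 36 members; squares are kinases and ubiquitin ligases, circles all other members, and filled symbols passed the test. Tlr2 and Cd14 stand highest, at 1.92 and 1.54, and Tbk1, Traf3, Irak2, Traf6 and Ripk2 lie between -0.07 and -0.01 at mean levels of 2.33 to 16.4 RPKM.

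Of the C-type lectin genes, the adaptor Card9 passed the test, with an averaged log2 fold change of 0.72 ± 0.12 (adjusted p = 0.00600). It was at 0.954, 0.793 and 0.980 RPKM in Cort+/+ CL and 1.47, 1.63 and 1.13 RPKM in Cort+/+ MCAO libraries. Libraries of Cort-/- mice had 0.837, 1.03 and 0.743 RPKM in CL and 2.04, 1.58, 1.27, 1.81 and 1.66 RPKM in MCAO libraries, again with no overlap. The receptors Clec4n (Dectin-2), Clec4d (MCL) and Clec4e (Mincle) lie side by side on chromosome 6 and were near the limit of detection. Clec4d had 1 to 5 reads in Cort+/+ CL, 0 to 16 in Cort+/+ MCAO, 0 to 3 in Cort-/- CL and 7 to 31 in Cort-/- MCAO libraries. Relative to the reads sequenced, the ratio of its summed reads in MCAO to those in CL hemispheres of Cort-/- mice was 10.1 (95% exact interval 3.79 to 38.0, covering counting error only), but across libraries the change did not pass the test (log2 fold change 1.55 ± 0.43, adjusted p = 0.0999). Clec4e had 0 to 2 reads in CL libraries of both genotypes, 0 to 12 in Cort+/+ MCAO and 3 to 19 in Cort-/- MCAO libraries. Its ratio was 3.51 (1.10 to 14.7) in Cort+/+ and 4.23 (1.81 to 12.1) in Cort-/- mice by the same count. Of its 14 reads in Cort+/+ MCAO libraries, 12 came from replicate 3, a spread that the interval does not cover. Across libraries, the limma adjusted p of Clec4e was 0.899 in Cort+/+ mice and 0.323 averaged over both genotypes. Clec4n had 2 to 29 reads, and its adjusted p was 0.878.

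In cytosolic nucleic acid sensing, the adaptors Sting1 and Mavs passed and the sensor Cgas did not. Sting1, which relays the signal of cGAS, was at 1.17, 1.60 and 1.05 RPKM in Cort+/+ CL and 2.30, 3.04 and 1.70 RPKM in Cort+/+ MCAO libraries. The Cort-/- libraries had 1.22, 1.11 and 1.52 RPKM in CL and 3.56, 2.36, 1.71, 2.58 and 2.65 RPKM in MCAO libraries. No library overlapped between hemispheres, and the averaged log2 fold change was 0.87 ± 0.17 (adjusted p = 0.0122). Mavs, the adaptor of the RNA sensors RIG-I and MDA5, had the smallest change of the 10 at 0.28 ± 0.06 (adjusted p = 0.0220). It was at 2.81, 2.91 and 2.48 RPKM in Cort+/+ CL and 3.58, 3.47 and 3.08 RPKM in Cort+/+ MCAO libraries. Its Cort-/- values were 2.66, 2.69 and 2.93 RPKM in CL and 3.53, 3.17, 3.24, 3.08 and 3.62 RPKM in MCAO libraries, without overlap. Its call was lost on leaving out CL replicate 1 or 2 of Cort-/- mice, or CL replicate 3, MCAO replicate 2 or MCAO replicate 3 of Cort+/+ mice, with log2 fold changes of 0.24 to 0.27. Cgas had 0.355 ± 0.0725 RPKM in Cort+/+ CL and 0.430 ± 0.134 RPKM in Cort+/+ MCAO libraries (SD, n = 3 each), and 0.303 ± 0.0529 RPKM in Cort-/- CL and 0.511 ± 0.0582 RPKM in Cort-/- MCAO libraries (SD, n = 3 and 5), with an averaged log2 fold change of 0.40 ± 0.14 (adjusted p = 0.182).

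Within Cort-/- mice alone, 5 of the 36 members were higher in MCAO hemispheres, namely Card9, Cd14, Myd88, Tlr1 and Unc93b1, and none was lower. In this comparison 1.72% of all genes tested passed, and 4.08% of genes averaging 1 RPKM or more, beside 4 of the 18 members at that level, among them Card9. With the level taken from the CL libraries alone the values were 3.34% and 3 of 15 members. Tlr1 had a log2 fold change of 1.36 ± 0.30 (adjusted p = 0.0418), Cd14 1.58 ± 0.36 (0.0448), Card9 0.87 ± 0.16 (0.0205), Myd88 0.84 ± 0.19 (0.0432) and Unc93b1 0.75 ± 0.13 (0.0174). Tlr2 had the largest value (2.01 ± 0.48) and a spread that left it just outside (adjusted p = 0.0564), as were Irak4 (0.0542) and Sting1 (0.0583). The members' median log2 fold change was 0.53. Of the members 32 were positive and 23 had an unadjusted p under 0.05, beside 50.2% and 12.7% of all genes tested. In 22 members every MCAO library was above every CL library, which held for 4.85% of all genes. Among genes averaging 1 RPKM or more it held for 8.85%, and for 10 of the 18 members at that level. Tlr2, Tlr13 and Card9 reached that level only through the MCAO libraries. The count of 5 rested on single libraries. Leaving out CL replicate 1 or CL replicate 3 of Cort-/- mice took it to 0, and the calls over all genes from 792 to 133 and 149. Leaving out CL replicate 2 or MCAO replicate 1 or 4 of this genotype took it to 1, MCAO replicate 5 to 2 and MCAO replicate 2 to 3. Libraries of the other genotype enter through the shared variance, and the count was 2 when Cort+/+ CL replicate 3 or MCAO replicate 2 was left out and 3 when Cort+/+ CL replicate 2 was. It grew to 8 on leaving out Cort+/+ MCAO replicate 4 and to 9 on leaving out Cort-/- MCAO replicate 3, the library of lowest depth.

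Within Cort+/+ mice alone, none of the 36 members passed the limma test, where 0.0108% of all genes did. An unadjusted p under 0.05 was found for 11 members and for 7.87% of all genes. Limma voom on recovered reads also called none of the members. For the 10 members named above the estimates were positive, from 1.82 for Tlr2 and 1.49 for Cd14 to 0.29 for Mavs. These 10 were chosen by an average that includes the Cort+/+ libraries, so a positive sign here largely follows from that choice. The median of the 36 was 0.28 and 30 were positive, beside 49.6% of all genes. In 10 members, Card9, Cd14, Irak4, Ly96, Mavs, Myd88, Sting1, Tlr1, Tlr2 and Unc93b1, every MCAO library was above every CL library, as in 5.73% of all genes. Among genes averaging 1 RPKM or more this held for 8.19%, and for 7 of the 18 members at that level. Tlr2 and Card9 reached it only through the MCAO libraries. When Cort+/+ MCAO replicate 4 was left out 1 member passed, Unc93b1, and the calls over all genes went from 5 to 160; over the other libraries left out in turn they were 3 to 29, with 0 members.

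**Figure D3:**
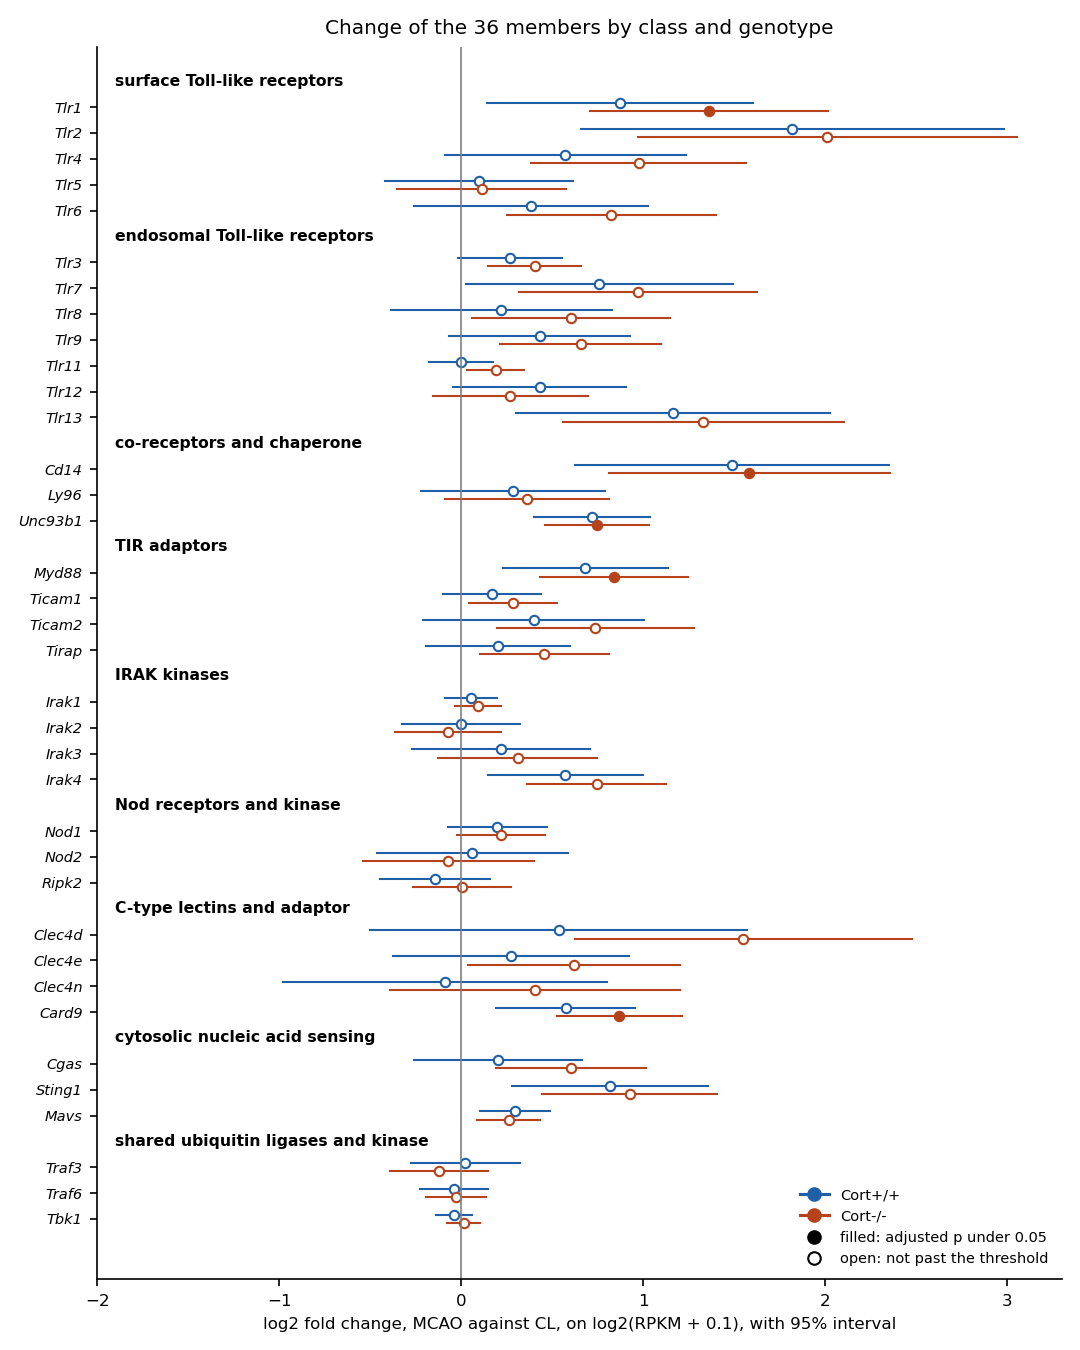
Log2 fold change of MCAO against CL hemispheres for each of the 36 members by class, in Cort+/+ (blue) and Cort-/- mice (red), on log2(RPKM + 0.1) with 95% intervals; filled points passed the test in that genotype. The filled points are Tlr1, Cd14, Unc93b1, Myd88 and Card9 in Cort-/- mice, and the intervals of the genotypes overlap for every member.

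The genotypes were compared directly, since a call in 1 genotype and not in the other does not show that they differ. No member passed the test of a difference between genotypes in the change from CL to MCAO (0 of 36 by adjusted p and 0 by unadjusted p under 0.05, also 0 by limma voom), and 0.00217% of all genes passed this test. The differences, as Cort-/- minus Cort+/+, were positive for 31 members and for 48.2% of all genes. Since members moved together between libraries, these signs are not independent, and 17 members took both signs over the alternatives. The members' median was 0.15 on the log2 scale. The difference was 1.01 ± 0.64 for Clec4d, the largest, with a 95% interval of -0.37 to 2.40. For the members called in Cort-/- mice it was 0.49 ± 0.45 for Tlr1, 0.29 ± 0.24 for Card9, 0.16 ± 0.28 for Myd88, 0.09 ± 0.54 for Cd14 and 0.03 ± 0.20 for Unc93b1. The intervals leave room for differences of some size, from -0.40 to 0.46 for Unc93b1 and -0.45 to 0.77 for Myd88 to -1.37 to 1.75 for Tlr2.

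In CL hemispheres, Cort-/- and Cort+/+ mice had 0 of 36 members apart, where 0.0152% of all genes passed, with 0 members at an unadjusted p under 0.05 and a median log2 difference of 0.00. In MCAO hemispheres the count was again 0 of 36, where 0.0174% of all genes passed, with 0 at an unadjusted p under 0.05 and a median of 0.17. Values there were positive for 31 members and for 49.2% of all genes. Members moved together between libraries, with 32 of the 36 lowest in Cort+/+ MCAO replicate 4 of its group, so these signs are not independent. Over the alternatives 14 members took both signs. Limma voom on recovered reads called 0 members in both comparisons. With 1 library left out, the calls over all genes ranged from 7 to 27 in CL and from 7 to 40 in MCAO hemispheres, the latter 36 to 40 on leaving out any Cort+/+ MCAO library, and no member was among them. On leaving out Cort+/+ MCAO replicate 3, where 29 members were highest in their group, 7 members had an unadjusted p under 0.05 in MCAO hemispheres, and still none passed after adjustment. The share of all genes at that unadjusted p was not counted for this fit. Tlr2 averaged 2.85 ± 1.22 RPKM (SD, n = 5) in Cort-/- MCAO and 2.47 ± 1.26 RPKM (SD, n = 3) in Cort+/+ MCAO libraries, and Cd14 averaged 4.34 ± 1.39 and 3.58 ± 1.75 RPKM (SD, n = 5 and 3), with differences smaller than the spread between libraries. The comparisons of this paragraph share their libraries with those above.

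The members shared much of their order of libraries within a group. Of the 36, 32 were lowest in Cort+/+ MCAO replicate 4 among the 3 libraries of that group and 29 were highest in replicate 3, as were 32.8% and 32.0% of genes averaging 1 RPKM or more. In Cort+/+ CL, replicate 1 was highest for 24 members and for 35.9% of such genes. In Cort-/- MCAO, replicate 3 was lowest for 20 and replicate 1 highest for 16 of the 36 members, as for 25.6% and 20.4% of such genes. The same libraries stood at the ends of the microglial marker sum, at 125 RPKM in Cort+/+ MCAO replicate 4 against 192 RPKM in replicate 3, and at 143 RPKM in Cort-/- MCAO replicate 3 against 208 RPKM in replicate 1. Cort+/+ CL replicate 1 had a monocyte and macrophage marker sum of 14.1 RPKM, beside 4.43 and 5.97 RPKM in the other CL libraries of that genotype. The part of these markers in the members' spread was not tested.

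Microglial markers and some monocyte and macrophage markers moved with the members. The 7 microglial markers, which include Csf1r, the receptor that keeps microglia alive, summed to 96.2 to 104 RPKM in Cort+/+ CL, 125 to 192 RPKM in Cort+/+ MCAO, 95.6 to 111 RPKM in Cort-/- CL and 143 to 208 RPKM in Cort-/- MCAO libraries. All 7 had positive averaged log2 fold changes with a median of 0.65, and 5 passed the test. The 7 monocyte and macrophage markers summed to 4.43 to 14.1, 10.9 to 26.0, 6.36 to 11.4 and 17.6 to 54.0 RPKM in the same order of groups, with a median averaged log2 fold change of 0.93, and 3 of them passed (Cd5l, Plac8 and Lyz2). The 7 neutrophil markers summed to 4.98 to 6.92, 5.95 to 7.72, 6.10 to 11.9 and 7.01 to 19.1 RPKM, with a median of 0.00 and 1 call (Csf3r). Of the 5 astrocyte markers 3 were higher in MCAO hemispheres, of the 4 endothelial markers 1 was higher, of the 6 T cell markers 1 was lower (Cd4), and none of the 4 B cell, 4 oligodendrocyte or 5 neuron markers passed. Cd4 went against most of its list, since 4 of the 6 T cell markers had positive averaged values, with a median of 0.12. How far these cells account for the members' levels was not tested.

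Set against the microglial sum, the members fell into different patterns. Unc93b1 was at 5.11% to 5.69% of that sum in Cort+/+ MCAO and 5.21% to 5.56% in Cort+/+ CL libraries, and at 5.52% to 6.15% in Cort-/- MCAO and 5.72% to 6.56% in Cort-/- CL libraries. Myd88 (medians of 2.62%, 2.55%, 2.49% and 2.51% in Cort+/+ CL, Cort+/+ MCAO, Cort-/- CL and Cort-/- MCAO), Irak4 and Card9 likewise overlapped between hemispheres. Tlr2 had medians of 0.388% in Cort+/+ CL, 1.31% in Cort+/+ MCAO, 0.429% in Cort-/- CL and 1.73% in Cort-/- MCAO libraries, although the ranges overlapped in both genotypes. Cd14 had medians of 1.02%, 1.80%, 1.32% and 2.48% in that order, with separate ranges in Cort-/- mice (1.11% to 1.42% in CL and 1.63% to 2.95% in MCAO). Tlr1 also had separate ranges in Cort-/- mice (0.155% to 0.243% in CL and 0.282% to 0.513% in MCAO) and overlapped in Cort+/+ mice. Tlr13 and Sting1 overlapped in both genotypes. Mavs had a lower share in MCAO hemispheres, with 2.58% to 2.88% in Cort+/+ CL against 1.81% to 2.46% in Cort+/+ MCAO and 2.42% to 3.07% in Cort-/- CL against 1.58% to 2.27% in Cort-/- MCAO libraries. These ratios are a description, chosen after the values were seen, and were not tested.

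**Figure D4:**
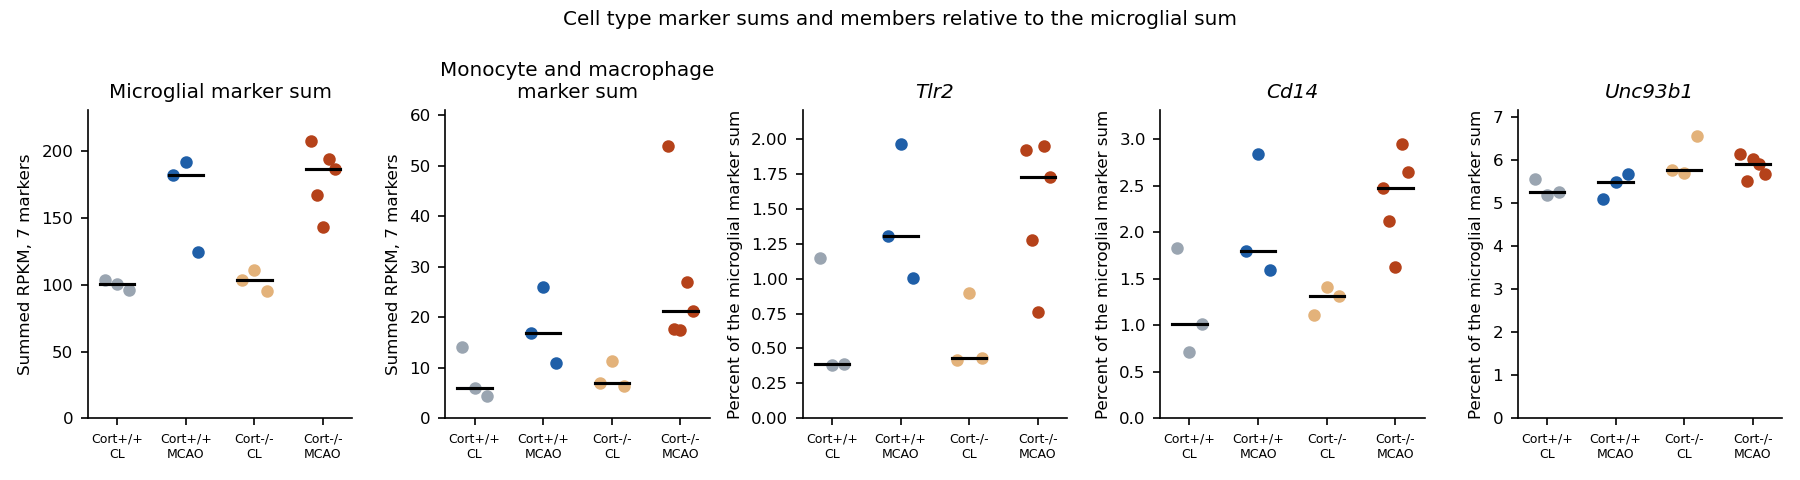
Summed RPKM of 7 microglial and 7 monocyte and macrophage markers, and Tlr2, Cd14 and Unc93b1 as a percent of the microglial sum, by group (points, libraries; bars, medians; n = 3, 3, 3 and 5). The microglial sum is higher in every MCAO library than in every CL library, Unc93b1 stays at 5.11% to 6.56% of it in all libraries, and Tlr2 has medians of 1.31% and 1.73% in the MCAO groups against 0.388% and 0.429% in the CL groups.

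Another 51 genes of pattern recognition and its signalling were counted in the same fit. Averaged over both genotypes 16 were higher in MCAO hemispheres and none was lower, where 3.43% of all genes tested passed. In Cort-/- mice 9 were higher and in Cort+/+ mice 0 were, beside 1.72% and 0.0108% of all genes passing. None of the 51 passed in any comparison between genotypes. In Cort+/+ mice 16 had an unadjusted p under 0.05 and 38 of 51 were positive, beside 7.87% and 49.6% of all genes. The 51 genes had an averaged median log2 fold change of 0.19, beside 0.00 for all genes tested. Those named here averaged 1 RPKM or more over all libraries, MCAO included. Msr1, Irf7, Slc15a3, Dhx58, Ifih1 and Syk reached this level only through the MCAO libraries, being below it on average over the CL libraries. Msr1, a macrophage scavenger receptor, changed by 2.95 ± 0.44 (adjusted p = 0.00376). It was at 0.104 ± 0.0885 RPKM in Cort-/- CL and 2.14 ± 1.18 RPKM in Cort-/- MCAO libraries (SD, n = 3 and 5). Irf7, the transcription factor of interferon induction downstream of endosomal TLRs, changed by 2.68 ± 0.52 (adjusted p = 0.0132). The RNA sensors upstream of Mavs rose more than Mavs itself in estimate, with Rigi at 1.35 ± 0.27 (adjusted p = 0.0145), their regulator Dhx58 at 1.33 ± 0.27 (0.0152) and Ifih1 (MDA5) at 1.00 ± 0.24 (0.0374), a difference that was not tested. Upstream of Card9, the signalling subunit Fcer1g rose by 1.27 ± 0.19 (adjusted p = 0.00352) and the kinase Syk by 0.75 ± 0.14 (0.0124). In the endosome, the transporter Slc15a3 rose by 1.90 ± 0.32 (adjusted p = 0.00650) and the protease Lgmn by 0.81 ± 0.12 (0.00409). Irf5, a transcription factor downstream of Myd88, rose by 0.80 ± 0.18 (adjusted p = 0.0257).

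The exons of 17 of the 36 members overlap those of another gene in GENCODE M39, among them 5 of the 10 higher genes (Myd88, Irak4, Card9, Mavs and Unc93b1), each with a partner on the opposite strand. The libraries were stranded, but how strand was used in counting is not given in the sources used here, so reads of such partners may be included. Myd88 lies at chr9:119165000-119170486 on the minus strand, where its exons overlap those of Acaa1a, and Unc93b1 at chr19:3985167-3999341 on the plus strand. Tlr2 lies at chr3:83743576-83749074 on the minus strand and Tlr1 at chr5:65082022-65090941 on the minus strand, and neither overlaps another gene's exons (all GRCm39).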

How the data were processed

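Libraries of poly(A) RNA were prepared by the authors with an Illumina stranded mRNA kit from 14 hemispheres and sequenced as paired ends. The authors processed the reads with reanalyzerGSE on the GRCm39 genome and deposited RPKM values per gene and library, without pooling; the methods name a GENCODE annotation, and the counting of strand is not given in the sources used here. Whole reads were recovered from the deposited RPKM values (100% of 495656 values above 0 came out whole within 0.001 reads).

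Values were fitted as log2(RPKM + 0.1) with limma 3.58.1 (R 4.3.3; 1 model of 4 groups, moderated variances with trend) for the 46102 of 46904 genes above 0 in at least 2 libraries, with Benjamini-Hochberg adjustment over all of them and a threshold of 0.05. A fold change on this scale understates the change of low genes. There were 6 contrasts, MCAO against CL in each genotype and averaged, the genotypes in each hemisphere, and the interaction. All libraries entered each fit. Error bars are SD over libraries, errors of log2 fold changes are SE, and intervals and floors from reads cover counting error only. No 2 libraries of a group agreed within sampling noise.

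The members and lists were chosen with earlier results of these data known. Values by library are given for members that passed in any comparison and for the member of largest averaged change in each class that averaged 1 RPKM or more, and of the other 51 genes up to 10 that passed, at that same level, are named. Microglial, blood and brain cell markers were lists of 4 to 7 genes. Alternatives were a pseudocount of 1, a filter at a mean of 0.5 RPKM, no filter, median-ratio rescaling, limma voom on the recovered reads, a replicate block and leaving out each library. The fit was tested on simulated data. Gene positions and windows before gene starts come from GENCODE M39 on GRCm39; protein sequences were not used here. Python 3.11.15 with numpy 2.4.6, pandas 2.3.3 and scipy 1.17.1 was used.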

Additional observations from a re-analysis of the deposited data

How the results depend on the processing

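No member that passed the test changed sign in that comparison under any alternative run. Of the members that did not pass, values near 0 took both signs over the alternatives, for 4 members in the averaged comparison (Irak2, Nod2, Traf3 and Traf6), 8 in Cort+/+ and 5 in Cort-/- mice, 22 between genotypes in CL and 14 in MCAO hemispheres, and 17 for the difference in change, and the median of the CL comparison ranged from -0.05 to 0.06. The averaged count of 10 members was 10 with a pseudocount of 1, without a filter, after median-ratio rescaling and with the replicate block, and 14 with limma voom. With a filter at a mean of 0.5 RPKM, which tests 20 of the 36, it was 10 with Tlr3 and Tlr7 in place of Tlr1 and Irak4, which were not tested. It ranged from 7 to 17 with 1 library left out (the lowest on leaving out MCAO replicate 3 and the highest on leaving out MCAO replicate 4 of Cort+/+ mice). In Cort-/- mice the count of 5 became 2 with a pseudocount of 1, 7 with the filter at 0.5 RPKM and 10 with limma voom, and ranged from 0 to 9 with 1 library left out, while the members' median log2 fold change of 0.53 fell to 0.21 with a pseudocount of 1, where low genes count for less. In Cort+/+ mice the count ranged from 0 to 1. Over all genes, the 5 calls in Cort+/+ mice became 2 with a pseudocount of 1, 28 with the filter and 57 with limma voom, the 792 in Cort-/- mice became 1290 with the filter and 1293 with limma voom, and the 7 between genotypes in CL hemispheres became 4 with the filter and 16 with limma voom, as the 8 in MCAO hemispheres became 4 and 12. All member counts between genotypes stayed at 0 in every alternative run. Same-numbered CL and MCAO libraries had deviations that correlated at 0.316 and -0.141 in Cort+/+ and at -0.0645, -0.239 and 0.0271 in Cort-/- mice. The numbers were therefore not taken to pair animals. Cort+/+ CL replicates 1 and 3 correlated most with MCAO replicates 3 and 4 (0.27 and 0.268). Cort-/- CL replicates 1, 2 and 3 correlated most with MCAO replicates 2, 4 and 5 (0.232, 0.379 and 0.404). Whether these came from the same animals was not tested. The replicate block (consensus correlation -0.0045) joins libraries by number only, so it cannot show whether hemispheres were paired. This block gave the same counts of 5 and 10 and changed no call of a member. Where variability was large the methods kept replicates that grouped clearly, and what this did to the spread behind every p-value was not tested. Depth limits the 6 members with under 10 reads in some library most.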
